A study of Mus musculus with 15 samples.

Results

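The SR splicing factor genes were followed as a family in hematopoietic stem cells (HSCs): the 10 genes Srsf1, Srsf2, Srsf3, Srsf4, Srsf5, Srsf6, Srsf7, Srsf9, Srsf10 and Srsf11, picked by symbol out of 35533 gene symbols. All 10 had enough reads to be tested, among 13358 genes that passed a filter on low counts. The transcript table held 85 annotated transcripts of these genes, of which 75 were above 0 in at least 1 library. Bone marrow cells of the phenotype Lin−Sca1+c-Kit+CD150+CD48− were sorted and profiled by bulk RNA-seq of poly(A) RNA, with 3 libraries labelled for each of 5 genotypes, 15 in all. Every mouse carried 2 copies of 1 germline allele at the Gfi1 locus, which encodes a transcriptional repressor of blood cell development. Gfi1-WT (WT/WT) had the murine gene. GFI1-KI (KI/KI) had human GFI1 in its place, in the form with serine at position 36. GFI1-KD (KD/KD) had human GFI1 and, reversed relative to it, a Neo cassette that lowers its expression. Gfi1-KO (KO/KO) had lost the gene, and GFI1-36N (36N/36N) had a human variant form with asparagine at that position. No treatment was given to any group. Ages, sexes and the number of animals behind a library are not given in the sources used here, so that p values measure the spread between libraries, which may be technical. Columns of values were matched to labels by number alone, and each genotype below is the label of a library.

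SR proteins carry an RNA recognition motif and a tail rich in arginine and serine. They bind enhancer sequences in exons and recruit the U1 and U2AF splicing factors to nearby splice sites. Kinases of the SRPK and CLK families phosphorylate the tail, and transportin 3 carries the proteins into the nucleus. Most SR genes also hold a poison exon, an ultraconserved exon with a stop codon: when the protein is abundant the exon is included, and the transcript is degraded by nonsense-mediated decay (NMD) instead of being translated. In human myelodysplastic syndromes SRSF2 is among the splicing factors that are recurrently mutated, which makes the family of interest in blood stem cells.

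The stop codons of 3 poison exons are shown since transcripts that hold them made up much of the reads of Srsf3 and Srsf7 below. Each sequence is taken from the GENCODE M21 transcripts on GRCm38 and runs from the first base of the poison exon to its stop codon, which is in capitals. Srsf3-201 reads through chr17:29039454-29039487 on the plus strand (34 bases) and ends after 124 codons, where the coding transcript Srsf3-202 has 164. Srsf7-203 reads through chr17:80205054-80205081 on the minus strand (28 bases) and ends after 137 codons, against 238 in Srsf7-201. Srsf6-201 reads through chr2:162932815-162932966 on the plus strand (152 bases) and ends after 135 codons, against 339 in Srsf6-203.
Srsf3-201: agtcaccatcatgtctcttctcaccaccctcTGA
Srsf7-203: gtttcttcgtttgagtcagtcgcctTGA
Srsf6-201: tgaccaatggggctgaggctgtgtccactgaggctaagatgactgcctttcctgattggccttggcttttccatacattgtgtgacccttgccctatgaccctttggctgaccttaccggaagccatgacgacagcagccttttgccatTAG

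A second feature of Srsf7 is a segment of 33 bases at the end of an exon, chr17:80204122-80204154 on the minus strand, between alternative 5′ splice sites. It is shown because it separates the retained-intron transcripts Srsf7-206 and Srsf7-207 described below. Capitals mark the 24 bases that Srsf7-203, Srsf7-207 and Srsf7-208 keep. Srsf7-201, Srsf7-202 and Srsf7-204 also keep the last 9 bases, and Srsf7-205 and Srsf7-206 hold none of the 33.
Srsf7 segment: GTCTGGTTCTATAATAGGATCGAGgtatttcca

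Libraries held 16.22 to 20.64 M estimated counts, with 9415 to 15125 genes above 0. GFI1-36N replicate 3 had the fewest genes and the lowest median Spearman correlation with the other libraries, 0.711 against 0.804 to 0.863 for the rest. The targeted gene did not follow the labels: Gfi1 was at 105, 54.5 and 0 estimated counts in the libraries labelled Gfi1-KO and at 4.85, 0 and 0 in those labelled Gfi1-WT (two-sided exact permutation test, p = 0.4). It was at 0, 0 and 267 in GFI1-KD and at 0, 126 and 31.2 in GFI1-KI (exact p = 1.0), where the mouse transcripts used for counting do not hold human GFI1. At 3 libraries a group this test cannot give a p below 0.1. All 10 HSC markers of the list used were detected, at a summed 753 to 2050 CPM (counts per 1000000 of a library). Markers of other cells were detected as well. Granulocyte and monocyte markers (11 of 12 above 0, Ly6g at 0) summed to 3530 CPM in Gfi1-KO replicate 2, which was also the library with the highest Cd48 (455 CPM, at most 48.0 in the others), the surface marker that the sort excludes. The erythroid markers (7 of 7 above 0) ranged from 22.9 to 355 CPM, and the megakaryocyte markers (6 of 6) from 34.3 to 2300 CPM.

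Read per unit of transcript length, SR gene expression in these HSCs ran from Srsf7 and Srsf5 at the top to Srsf9 and Srsf4 at the bottom. Levels between genes are compared here as transcript values divided by transcript length and scaled to a sum of 1000000 per library. In these units Srsf7, which promotes mRNA export as well as splicing, was the highest at 1483 ± 330 (SD, n = 15 libraries), above Srsf5 at 1094 ± 256 in 13 of 15 libraries. Srsf2, an exon-enhancer binding protein that mostly stays in the nucleus, followed at 468 ± 133 (SD, n = 15), and Srsf3, the smallest SR protein, at 402 ± 75.1 (SD, n = 15). Srsf10, a splicing repressor when dephosphorylated, was at 184 ± 69.8 (SD, n = 15) and Srsf11 at 178 ± 47.3 (SD, n = 15), and the order of these neighbours held in only 8 of 15 libraries. Srsf6 was at 72.3 ± 43.8, Srsf1 at 68.5 ± 28.5, Srsf9 at 29.6 ± 27.2 and Srsf4 at 22.2 ± 17.3 (SD, n = 15 each). Srsf6 lay above Srsf1 in 5 of 15 libraries and Srsf9 above Srsf4 in 8 of 15, so that neither pair was ordered beyond its spread.

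The abundant members varied less between libraries than the rare ones, and most members varied about as much as genes of like level. Over the 15 libraries the coefficient of variation of the level in CPM after TMM normalisation was 18.9% for Srsf3, 20.5% for Srsf7, 20.7% for Srsf5, 25.8% for Srsf2 and 27.3% for Srsf11. It was 37.5% for Srsf10, 40.0% for Srsf1, 63.5% for Srsf6, 79.7% for Srsf4 and 93.6% for Srsf9. Genes of like CPM, within 1.5-fold of the member's mean, gave the scale for this. Srsf3 was more variable than 13.3% of 300 such genes, whereas Srsf6 was more variable than 83.0% of 1414 and Srsf10 than 72.7% of 589. The abundant Srsf7 and Srsf5 were at 55.4% and 54.6%, and the rare Srsf4 and Srsf9 at 43.2% and 46.8%. Srsf9 was at 0.84 to 68.4 CPM and Srsf4 at 1.77 to 93.4 CPM, and neither could be ordered between genotypes. The CPM of the 10 genes summed to 4499 ± 157 in Gfi1-WT, 5152 ± 200 in GFI1-KI, 4051 ± 418 in GFI1-KD, 4552 ± 92.4 in Gfi1-KO and 4915 ± 235 in GFI1-36N HSCs (SD, n = 3 each). All 3 GFI1-KD sums, 3569 to 4319, lay below all 3 GFI1-KI sums, 4985 to 5374, as a description of the family with no test. The GFI1-KI sums also lay above the Gfi1-WT sums, 4372 to 4674. Abundant members weigh most in a sum: the mean of Srsf7 was 1205 CPM in GFI1-KD and 1803 CPM in GFI1-KI. Of the 10 log2 differences between these genotypes 6 were above 0 and 4 below.

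**Figure D1:**
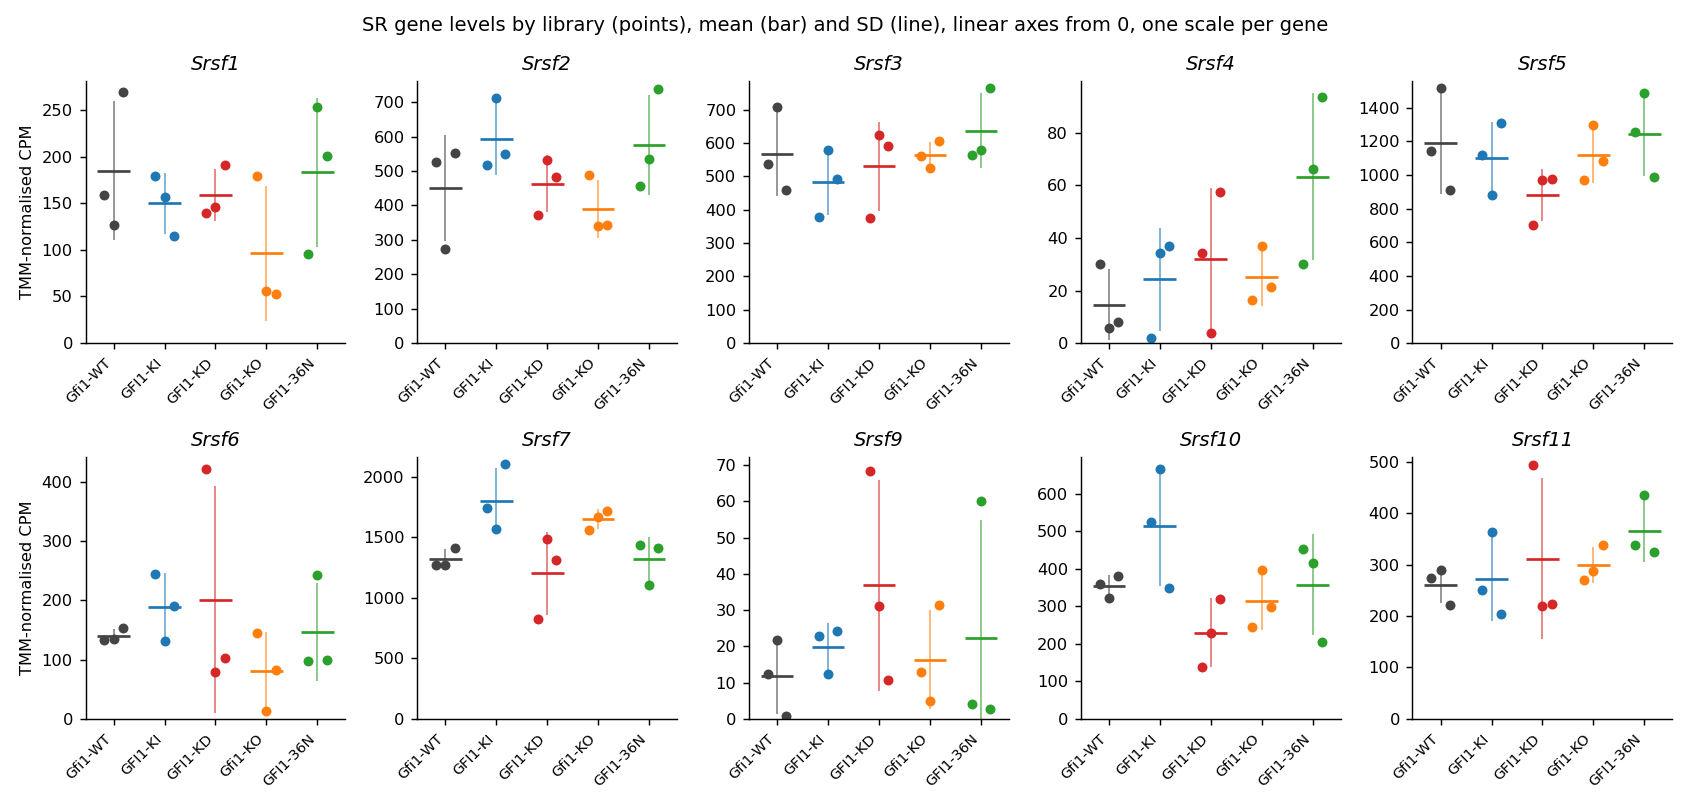
Level of each SR gene in CPM (TMM-normalised, linear axes from 0, one scale per gene) in the 15 libraries, grouped by genotype. Points are libraries, bars are means and vertical lines are SDs of 3 libraries. Srsf7 was at 822 to 1483 CPM in GFI1-KD and 1566 to 2103 in GFI1-KI, and Srsf10 at 137 to 320.5 and 349 to 666.

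GFI1-KD was compared with GFI1-KI HSCs to ask what reduced expression of the same human gene goes with. Srsf7 and Srsf10 were lower in every GFI1-KD library than in any GFI1-KI library, while the other 8 genes overlapped. Srsf7 (ENSMUSG00000024097, chr17:80200080-80207307 of GRCm38, minus strand) was at 822, 1483 and 1310.0 CPM in GFI1-KD and at 1742, 1566 and 2103 CPM in GFI1-KI. GFI1-KD replicate 1 was the lowest of all 15 libraries, and the gap between the highest GFI1-KD and the lowest GFI1-KI library was narrow. The difference was −0.58 on the log2 scale (standard error 0.19), at an unadjusted p of 0.00961 and an adjusted p of 1 from edgeR's quasi-likelihood test. Srsf10 (ENSMUSG00000028676, chr4:135855747-135869908, plus strand) was at 137, 229.8 and 320.5 CPM in GFI1-KD and at 525, 666 and 349 CPM in GFI1-KI. Here too replicate 1 was the lowest GFI1-KD library, and the groups were separated by the third library of each. The log2 difference of Srsf10 was −1.16 (standard error 0.38), at an unadjusted p of 0.00842 and an adjusted p of 1 from edgeR. In bulk RNA, fewer cells with a transcript and less of it per cell cannot be told apart.

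No SR gene passed edgeR's test between GFI1-KD and GFI1-KI after adjustment over 13358 genes, and neither did any other gene (0% called). At an unadjusted p under 0.05, 2 of the 10 were lower and 0 higher, where 2.49% of all genes passed that limit and 1.5% passed it in the lower direction. Groups did not overlap in 2 of 10, both lower, against 9.09% of all genes, or 5.05% in that direction. By DESeq2, 181 genes were called and 0 of them were SR genes, and limma-trend called 0 genes. Of the 10 log2 differences 6 were above 0 and 4 below, with a median of 0.09 beside 0 over all genes, of which 49.9% were below 0. Srsf2 had a log2 difference of −0.35 (standard error 0.29) and Srsf5 one of −0.32 (0.23). Srsf9, Srsf4, Srsf11, Srsf3, Srsf6 and Srsf1 lay between 0.08 and 0.89. The value of Srsf6, an SR protein with a long arginine and serine tail, came from 1 library: GFI1-KD replicates were at 422, 79.5 and 103 CPM and GFI1-KI replicates at 246, 131 and 191 CPM. Without GFI1-KD replicate 1 its log2 difference was −1.05 in place of 0.09, and that of Srsf11 −0.30 in place of 0.19.

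The lower levels of Srsf7 and Srsf10 in GFI1-KD depended on the control in size. Against Gfi1-WT in place of GFI1-KI the log2 difference of Srsf7 was −0.13, at an edgeR unadjusted p of 0.502, and that of Srsf10 −0.63, at 0.115. Without GFI1-KD replicate 1 they were −0.37 (unadjusted p = 0.0345 from edgeR) and −0.90 (0.0379). When the values of all transcripts were summed per gene, the Srsf7 ranges overlapped by a little (786 to 1654 CPM in GFI1-KD and 1610 to 2148 CPM in GFI1-KI), while those of Srsf10 stayed apart. On that scale Srsf2 was without overlap as well, at 392 to 552 CPM in GFI1-KD against 557 to 791 CPM in GFI1-KI, which made 2 of 10 genes where 9.09% of all genes did not overlap. All GFI1-KI libraries were also above the 252 to 554 CPM of Gfi1-WT for Srsf2 (2 of 10 genes without overlap, against 8.59%). T and NK cell markers (4 of 7 above 0, with Cd3e, Cd3g and Cd4 at 0) summed to 442 to 511 CPM in GFI1-KD and 250 to 300 CPM in GFI1-KI. Most of the sum was Nkg7, at 131 to 849 CPM over the 15 libraries. Klrb1c was at 0 to 85.9 CPM, highest in GFI1-36N replicate 2, Cd3d at most 2.11 and Cd8a at most 0.585. The part of these markers in the differences above was not tested.

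Gfi1-KO was compared with Gfi1-WT HSCs to ask what complete loss goes with. Srsf7 was at 1561, 1670.0 and 1721 CPM in Gfi1-KO and at 1275, 1272 and 1415 CPM in Gfi1-WT. All Gfi1-KO libraries were thus above all Gfi1-WT libraries, and both groups were tight. The log2 difference was 0.32 (standard error 0.19), at an unadjusted p of 0.117 and an adjusted p of 1 from edgeR. Srsf1 (ENSMUSG00000018379, chr11:88047373-88053755, plus strand) encodes a protein that recruits U1 and that can act as an oncoprotein when overexpressed. It was at 179, 56.4 and 52.9 CPM in Gfi1-KO and at 159, 127 and 269 CPM in Gfi1-WT. The first Gfi1-KO library lay among the Gfi1-WT libraries, and the other two were the lowest of all 15. The log2 difference of Srsf1 was −0.94 (standard error 0.53, unadjusted p = 0.0996 from edgeR), and −1.72 without Gfi1-KO replicate 1. Srsf6 was at 145, 13.4 and 83.3 CPM in Gfi1-KO and at 133, 135 and 153 CPM in Gfi1-WT, with a log2 difference of −0.80 (0.77). The low value of 13.4 CPM was that of Gfi1-KO replicate 2, the library with the most granulocyte markers. From transcript sums Srsf6 lay below Gfi1-WT in all Gfi1-KO libraries, at 14.2 to 137 against 142 to 182.5 CPM, and with Srsf7 made 2 of 10 genes without overlap on that scale, against 8.62% of all genes.

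No SR gene passed the test between Gfi1-KO and Gfi1-WT (0 of 13358 genes by edgeR, 0% called). At an unadjusted p under 0.05 there were 0 SR genes, where 3.07% of all genes passed. Groups did not overlap in 1 of 10, Srsf7, against 8.95% of all genes and 4.04% in the higher direction. DESeq2 called 194 genes and limma-trend 0, with 0 SR genes among them. Log2 differences were above 0 in 4 and below 0 in 6, with a median of −0.05 beside −0.03 over all genes, of which 51.5% were below 0. Srsf2, Srsf10, Srsf5 and Srsf3 lay between −0.21 and −0.01, Srsf11 at 0.19, and the rare Srsf4 and Srsf9 at 0.77 (standard error 1.19) and 0.48 (1.40). Against GFI1-KI in place of Gfi1-WT, the log2 difference of Srsf7 turned to −0.13 (unadjusted p = 0.517 from edgeR), so that the direction for Srsf7 in Gfi1-KO HSCs depended on the control genotype. B cell markers (4 of 6 above 0, Pax5 at 0), of which nearly all was Ebf1 at 914 to 1440 CPM over the 15 libraries, summed to 991 to 1140 CPM in Gfi1-KO and 1260 to 1540 CPM in Gfi1-WT, and their part in the difference of Srsf7 was not tested.

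Srsf7 therefore lay below its own control in the reduced state and above its own control in the lost state, and the size of this contrast rested on which control was used. The effect of GFI1-KD (against GFI1-KI) less the effect of Gfi1-KO (against Gfi1-WT) was −0.90 on the log2 scale (standard error 0.27), at an unadjusted p of 0.00536 and an adjusted p of 1 from edgeR. Over 22 alternatives it lay between −1.11 and −0.45, with unadjusted p values of 0.00131 to 0.034. The smallest value came from the 1 alternative in which both genotypes had the same control genotype, which then cancels and leaves GFI1-KD less Gfi1-KO. Against GFI1-KI both genotypes were lower, at −0.58 in GFI1-KD and −0.13 in Gfi1-KO, and against Gfi1-WT they were at −0.13 and 0.32. It was the only SR gene under an unadjusted 0.05 in this comparison, where 3% of all genes passed (1.64% in the lower direction) and edgeR called 0 of 13358 after adjustment. DESeq2 called 199 genes and limma-trend 0, none of them an SR gene. For Srsf10 the difference of effects was −0.99 (0.53, unadjusted p = 0.0835) and for Srsf1 1.02 (0.75, unadjusted p = 0.194). In all, 4 members were above 0 and 6 below, where 48.9% of all genes were below 0. The means of Srsf7 in the 4 genotypes were 1205 ± 343 CPM in GFI1-KD, 1803 ± 274 in GFI1-KI, 1651 ± 81.9 in Gfi1-KO and 1321 ± 81.9 in Gfi1-WT (SD, n = 3 each). The controls differed from each other about as much as GFI1-KD and Gfi1-KO differed from their own control, as the next values show.

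GFI1-KI and Gfi1-WT, the human and the murine gene at the same locus, share their libraries with the comparisons above. Srsf7 was higher in all 3 GFI1-KI libraries (1742, 1566 and 2103 CPM) than in the 3 Gfi1-WT libraries (1275, 1272 and 1415 CPM), by 0.45 on the log2 scale (standard error 0.19, unadjusted p = 0.0356 from edgeR, adjusted p = 1). The unadjusted p of Srsf7 ranged from 0.00754 to 0.133 over the alternatives. It was 0.133 without GFI1-KI replicate 3, 0.0513 without GFI1-KI replicate 1, 0.0807 and 0.0672 without Gfi1-WT replicates 1 and 2, and 0.065 from transcript sums. Between these controls 1 SR gene was under an unadjusted 0.05 and higher, where 2.09% of all genes passed (1.1% in the higher direction), and edgeR called 0 genes after adjustment (0%). Groups did not overlap in 1 of 10, against 8.65% of all genes and 4.46% in the higher direction. DESeq2 called 146 genes and limma-trend 0, with 0 SR genes. Srsf10 had a log2 difference of 0.54 (0.37) and overlapped, at 525, 666 and 349 CPM against 359, 322 and 381. In all, 7 of 10 log2 differences were above 0, with a median of 0.41 beside 0 over all genes, of which 49.8% were below 0.

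GFI1-36N was set against GFI1-KI, the 36S form of the same human gene. Srsf7 was at 1434, 1103 and 1416 CPM in GFI1-36N, where the Gfi1-WT libraries spanned 1272 to 1415 CPM. It lay below all 3 GFI1-KI libraries and within the 822 to 1483 CPM of GFI1-KD. The log2 difference of Srsf7 from GFI1-KI was −0.45 (standard error 0.19), at an unadjusted p of 0.0345 and an adjusted p of 0.981 from edgeR. It was the 1 SR gene under an unadjusted 0.05, where 4.6% of all genes passed (3.05% in the lower direction), and the 1 gene of 10 without overlap, against 9.57% of all genes and 6.27% in the lower direction. EdgeR called 0 genes after adjustment (0%), limma-trend 0, and DESeq2 364, of which 0 were SR genes. Srsf10 was at 453, 417 and 204 CPM, with the lowest value in replicate 3, and its log2 difference was −0.52 (0.37). Srsf4, Srsf11 and Srsf3 had log2 differences of 1.38 (1.21), 0.43 (0.34) and 0.40 (0.25). Of the 10, 6 were above 0 and 4 below, with a median of 0.17 beside −0.08 over all genes, of which 53.2% were below 0. Without GFI1-36N replicate 3, the library that stood apart, Srsf7 was at −0.51 (unadjusted p = 0.0405 from edgeR). Its unadjusted p ranged from 0.00853 to 0.138 over the alternatives, and was 0.123 without GFI1-36N replicate 2, 0.138 and 0.0529 without GFI1-KI replicates 3 and 1, 0.0902 with upper-quartile normalisation, 0.0672 by DESeq2 and 0.0536 from transcript sums. Srsf9 was at 3.98, 60.1 and 2.75 CPM in GFI1-36N, and its log2 difference of 0.17 (1.40) turned to −2.57 without the second library.

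**Figure D2:**
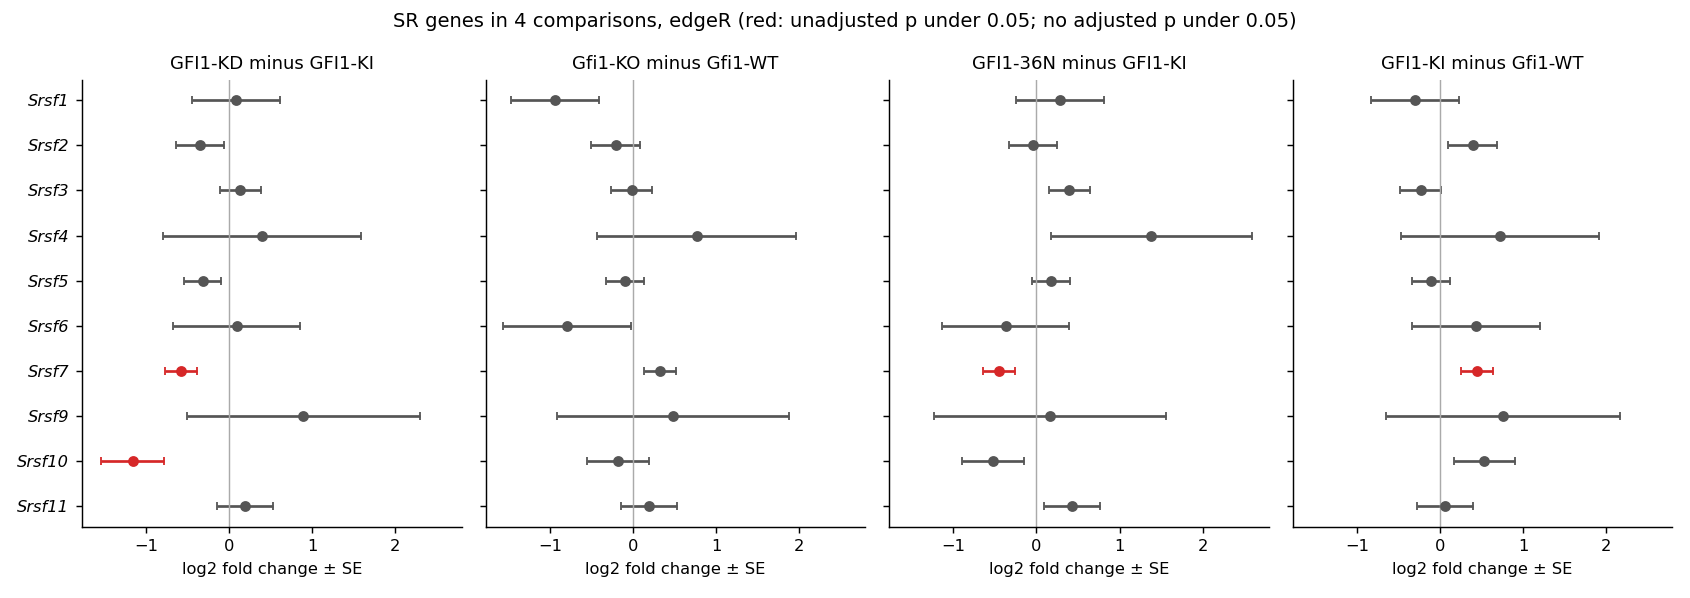
Log2 fold change of each SR gene with its standard error in 4 comparisons, from edgeR's fit of all 15 libraries. Red points had an unadjusted p under 0.05 (Srsf7 and Srsf10 in GFI1-KD minus GFI1-KI, Srsf7 in GFI1-36N minus GFI1-KI and in GFI1-KI minus Gfi1-WT), and no adjusted p was under 0.05.

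With both states of low GFI1 pooled, Srsf10 was the SR gene with the lowest p. The mean of GFI1-KD and Gfi1-KO was compared with the mean of GFI1-KI and Gfi1-WT, on the same libraries as before. Srsf10 differed by −0.67 on the log2 scale (standard error 0.26, unadjusted p = 0.0242 from edgeR, adjusted p = 1). The 6 libraries with reduced or lost GFI1 lay at 137 to 396 CPM and the 6 controls at 322 to 666 CPM, and these ranges overlapped. Srsf7 was at −0.13 (standard error 0.14), its opposite values in the separate comparisons offsetting each other. EdgeR called 1 gene of 13358 (0.00749%), Gmfg, and 0 SR genes. At an unadjusted p under 0.05 there was 1 SR gene, where 3.85% of all genes passed (2.07% in the lower direction), and 0 of 10 were free of overlap, against 0.359%. DESeq2 called 228 genes and 0 SR genes, and limma-trend 1 and 0. The median over the 10 was −0.17 beside −0.03 over all genes, with 4 above 0 and 6 below where 51.8% of all genes were below 0.

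The transcripts of the SR genes fell into classes that differed strongly between members. Over the 15 libraries, 71.1 ± 5.35% of the family's transcript values belonged to protein-coding transcripts, 13.1 ± 2.30% to NMD transcripts and 13.5 ± 3.72% to transcripts with a retained intron (SD, n = 15). These are shares of estimated counts, in which a long transcript takes more than a short one. Srsf10, Srsf9 and Srsf4 were nearly all coding, at a mean of 95.7%, 96.9% and 96.4%. Srsf3 was the least coding, at 34.6%, followed by Srsf7 at 64.9% and Srsf2 at 68.2%. Part of this order depended on the unit. Per unit of transcript length the coding share of Srsf7 was 62.6 to 91.8%, above Srsf2 at 53.45 to 67.2% in every library. In that unit Srsf10 was at 71.1 to 99.8% and Srsf1 at 37.1 to 100%. In GFI1-36N replicate 3 the coding share of the family was the highest of all libraries, at 84.0%, and the NMD share the lowest, at 6.46%.

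Poison exon transcripts were read in every library for Srsf3 and Srsf7. NMD transcripts took 11.1 to 57.3% of Srsf3 (median 40.1%, 15 libraries), with the lowest share in GFI1-36N replicate 3 and the highest in GFI1-KD replicate 1. The poison exon transcript Srsf3-201 was at 5074, 4692 and 3249 estimated counts in GFI1-KD, and the coding transcript Srsf3-202 at 3528, 3167 and 2990. In GFI1-KI, Srsf3-201 was at 2921, 4409 and 3082 and Srsf3-202 at 1467, 3029 and 1833. The estimate of the poison form was thus above that of the coding form in all 6 libraries, and the lengths of both transcripts, 2594 and 2618 bases, are close. How reads are split between transcripts of 1 gene is itself estimated, and is less certain than their sum. In Gfi1-KO, Srsf3-201 was at 3525, 4016 and 4162 against 3987, 2562 and 4366 for Srsf3-202, and in Gfi1-WT at 3607, 4065 and 1263 against 3182, 3125 and 4218. In these genotypes the order varied between libraries. GFI1-36N replicate 3 stood out with 1843 estimated counts of the poison and 10042 of the coding form.

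Srsf7-203, the NMD transcript that holds the poison exon of Srsf7 printed above, was at 2017 to 8836 estimated counts and made up 9.08 to 30.2% of the gene (median 24.1%). Its share was 19.9 to 23.6% in GFI1-KD and 22.5 to 25.8% in GFI1-KI, which overlapped, and so did 21.3 to 26.7% in Gfi1-KO and 14.95 to 30.2% in Gfi1-WT. The lowest share was again that of GFI1-36N replicate 3. The retained-intron transcripts Srsf7-206 and Srsf7-207 also hold this exon and are not part of these shares. Together they made up 0.018% (GFI1-36N replicate 3) to 17.6% (GFI1-KD replicate 3) of the gene. In Srsf6 the NMD transcripts varied from 0 to 27.0% and were listed at 0 in 6 of 15 libraries. In Srsf1 they varied from 0 to 19.0%, and in Srsf2 from 4.13 to 10.1%, where transcripts with a retained intron held a steady 24.4 ± 1.93% (SD, n = 15). Per unit of transcript length the NMD shares reached 53.5% in Srsf1, 42.1% in Srsf6 and 25.4% in Srsf2.

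**Figure D3:**
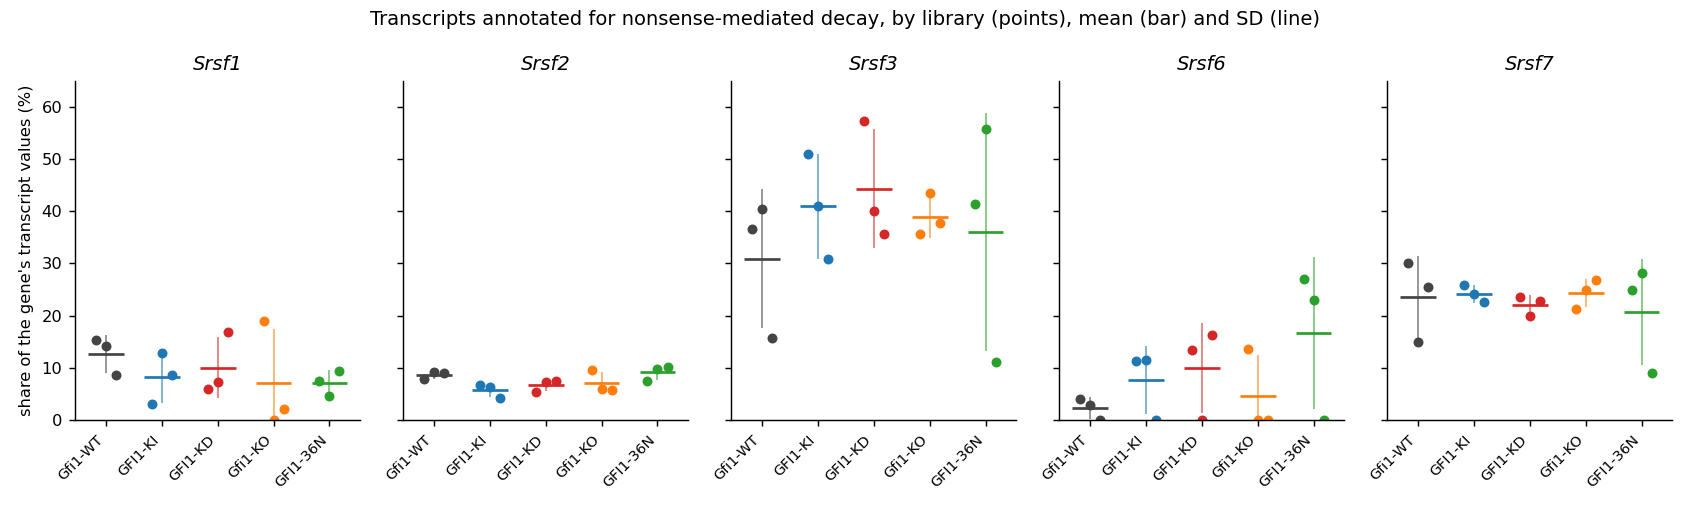
Share of each gene's transcript values (in percent of estimated counts) that belonged to transcripts annotated for NMD, for 5 SR genes. Points are libraries, bars are means and lines are SDs of 3 libraries. Srsf3 spans 11.1 to 57.3% and Srsf7 9.08 to 30.2%, with GFI1-36N replicate 3 lowest in both. Retained-intron transcripts of Srsf7 that also hold its poison exon are not counted.

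The coding share of each SR gene was compared between genotypes by two-sided exact permutation tests, 30 in all. The lowest p was 0.2, for Srsf3, at 33.2% in GFI1-KD against 24.1% in GFI1-KI, a difference of 9.18 percentage points. With 3 libraries against 3 the test cannot go below 0.1. For Srsf7 the share was 61.0% in GFI1-KD and 62.1% in GFI1-KI (exact p = 0.7), and 64.6% in Gfi1-KO against 67.2% in Gfi1-WT (exact p = 0.8).

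Within Srsf7, the estimated counts of retained-intron transcripts that include the poison exon were divided differently in the GFI1-KD and GFI1-KI libraries. No test of this passed adjustment, as given below. Srsf7-207, which keeps the 24 capital bases of the segment shown above, was at 563, 1762 and 2820 estimated counts in GFI1-KD and at 0 in all 3 GFI1-KI libraries. Elsewhere it was above 0 only in Gfi1-KO replicate 2 (652) and in Gfi1-WT replicate 3 (632). Srsf7-206, which lacks the segment, was at 856, 3786 and 1986 in GFI1-KD and at 3513, 3907 and 4570 in GFI1-KI. The sum of both was 1419, 5548 and 4806 in GFI1-KD and 3513, 3907 and 4570 in GFI1-KI, which overlapped. Transcripts with none of the 33 bases made up 14.57, 15.55 and 15.02% of Srsf7 in GFI1-KD and 20.1, 20.6 and 20.2% in GFI1-KI. These shares did not overlap, and the spread within each genotype was small. They include Srsf7-206 and are thus not separate from its counts above. How often such shares do not overlap in other genes was not counted. In Gfi1-WT the shares were 18.8, 12.6 and 5.85%, and in Gfi1-KO 16.6, 16.9 and 10.6%, so that both GFI1-KD and GFI1-KI lay within or next to the range of the others.

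By edgeR's test of transcript usage (31265 transcripts of 8018 genes), Srsf7 had an unadjusted p of 0.000775 and an adjusted p of 0.708 between GFI1-KD and GFI1-KI. It was the 1 SR gene under 0.05 there, where 6.95% of genes passed. No gene was called after adjustment in that comparison (0%), and the Simes variant of the test called 1 gene (0.0125%), which was not an SR gene. Srsf7-207 taken alone had an unadjusted p of 8.93e-06 and an adjusted p of 0.14 over all transcripts, where 4.59% of transcripts had an unadjusted p under 0.05. Between GFI1-KI and Gfi1-WT the usage test gave Srsf7 an unadjusted p of 0.00396, but 0.945 when Gfi1-WT replicate 3 was left out, the single library with Srsf7-207 in that pair of genotypes. There 6.51% of genes and, as single transcripts, 4.36% of transcripts had an unadjusted p under 0.05. The pooled comparison gave 0.00549, and 1 when Gfi1-KO replicate 2 was left out. In that comparison 10.8% of genes were under 0.05. Between Gfi1-KO and Gfi1-WT it was 0.998, where 7.21% were under 0.05, but 0.0424 without Gfi1-KO replicate 2 and 0.0578 without Gfi1-WT replicate 3, and between GFI1-36N and GFI1-KI 0.941, where 10% were. The F test called 0 genes in each of these comparisons after adjustment. The Simes variant called 1 gene (0.0125%) between GFI1-KI and Gfi1-WT, 2 (0.0249%) between GFI1-36N and GFI1-KI and 0 in the others, none of them an SR gene. Salmon divides reads between these overlapping transcripts by likelihood, and their split is less certain than their sum.

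Of the coding forms of Srsf10, the long one was without overlap between GFI1-KD and GFI1-KI, and the short one overlapped. This is a description with no test, in counts not scaled between libraries. The share of all transcripts without overlap was not counted. The long form (Srsf10-202 with 261 codons and Srsf10-204 with 262) was at 780, 1334 and 2408 estimated counts in GFI1-KD and 2529, 5506 and 3688 in GFI1-KI, with no overlap. The short form (Srsf10-205, 183 codons) was at 2398, 2635 and 3193 in GFI1-KD and 6245, 5201 and 2677 in GFI1-KI, and these overlapped by 1 library. In Gfi1-KO the long form was at 1195, 2373 and 1801 and in Gfi1-WT at 2513, 3494 and 2487, again with no overlap, whereas the short form was at 2376, 4013 and 4635 against 3231, 2047 and 3578. The share of the long form was 24.5 to 40.5% in GFI1-KD and 27.3 to 56.0% in GFI1-KI, and these shares overlapped. For Srsf10 edgeR's usage test gave an unadjusted p of 0.9645 and an adjusted p of 1 in GFI1-KD against GFI1-KI. Relative to the gene the long transcripts went opposite ways there, Srsf10-202 at 1.46 and Srsf10-204 at −0.96 on the log2 scale. Their unadjusted p values from that test were 0.302 and 0.31. GFI1-36N replicate 3 was listed at 0 for the long form, and its short form made up 94.5% of the gene.

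**Figure D4:**
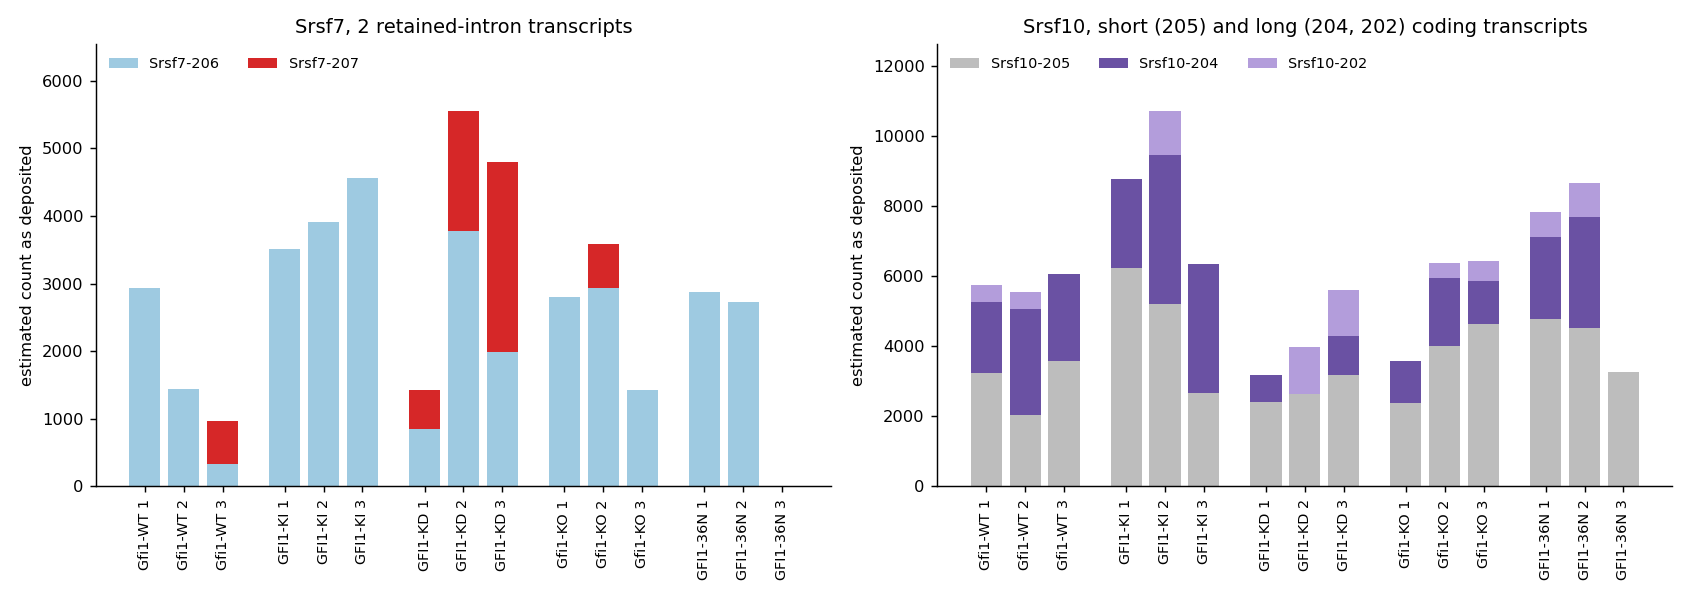
Estimated counts as deposited (linear axes from 0, stacked bars, 1 bar per library) of the retained-intron transcripts Srsf7-206 and Srsf7-207 and of the short (205) and long (204 and 202) coding transcripts of Srsf10. Srsf7-207 was above 0 in all 3 GFI1-KD libraries, in Gfi1-KO replicate 2 and in Gfi1-WT replicate 3.

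Genes that act with the SR proteins gave no adjusted call in any of 5 lists. Of the kinases and the importer of SR proteins 7 of 8 were tested, and 0 had an unadjusted p under 0.05 in GFI1-KD against GFI1-KI or in Gfi1-KO against Gfi1-WT. Their median log2 difference was 0.29 and −0.12, beside 0 and −0.03 over all genes. Clk1, a kinase that releases SR proteins from nuclear speckles, was at 296 to 483 CPM in GFI1-KD and 370 to 595 CPM in GFI1-KI (log2 difference −0.45, standard error 0.30). Clk2 had the lowest p of the list in Gfi1-KO, at −1.71 (1.9). Of 15 SR-related proteins 14 were tested and 0 were under 0.05 in either comparison, with medians of −0.07 and 0.01. Tra2b, a splicing activator with its own poison exon, was at 976 to 1180 CPM in GFI1-KD and 1100 to 1600 CPM in GFI1-KI (−0.29, standard error 0.20). Rbm39, an SR-like splicing cofactor, was at 173 to 340 CPM in Gfi1-KO and 140 to 618 CPM in Gfi1-WT (−0.67, standard error 0.43).

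Of 26 hnRNP proteins, which often oppose SR proteins at exons, all were tested. In GFI1-KD 1 was lower at an unadjusted p under 0.05 and 0 were higher, close to the 2.49% of all genes that passed, with a median of −0.20. This was Ptbp1, the polypyrimidine tract binding repressor, at 38.9 to 114 CPM in GFI1-KD and at up to 351 CPM in GFI1-KI (−1.35, standard error 0.55, unadjusted p = 0.0292 from edgeR), and the ranges of both genotypes overlapped. In Gfi1-KO 1 was higher and 0 lower, where 3.07% of all genes passed, with a median of 0.01: Syncrip was at 304 to 704 CPM and at 84.8 to 232 CPM in Gfi1-WT (1.69, standard error 0.60, unadjusted p = 0.0138). Hnrnpk, the member with the highest mean, was at 2890 to 3250 CPM in GFI1-KD and 2580 to 3030 CPM in GFI1-KI. Of 27 U1, U2AF and SF3 core factors 1 was lower in GFI1-KD and 0 in Gfi1-KO, again close to the share of all genes. It was Sf3b6, the SF3B subunit at the branch point, at 165 to 229 CPM in GFI1-KD and 247 to 408 CPM in GFI1-KI (−0.66, standard error 0.28, unadjusted p = 0.0363). Sf3b1, a subunit recurrently mutated in myelodysplasia, was at 597 to 981 CPM and 374 to 988 CPM, and Snrpa1 at 313 to 492 CPM in Gfi1-KO and 178 to 308 CPM in Gfi1-WT (0.68, standard error 0.34). Of 15 NMD factors 0 were under 0.05 in either direction in both comparisons, with medians of −0.18 and 0.32. Among them Smg5 was at 3.08 to 7.06 CPM in GFI1-KD and 3.05 to 24.2 CPM in GFI1-KI, and Rbm8a, a subunit of the exon junction complex, at 270 to 294 CPM in Gfi1-KO and 196 to 297 CPM in Gfi1-WT.

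The SR genes did not vary as a block over the 15 libraries. Of 45 pairs of members 18 had a Pearson correlation of log2 CPM above 0, with a median of −0.05, a lowest value of −0.63 (Srsf7 with Srsf11) and a highest of 0.60 (Srsf1 with Srsf2). The 15 points share genotypes in groups of 3 and a common scaling, and the values are a description. Srsf7 with Srsf11 was at −0.91 and Srsf1 with Srsf2 at 0.62 when the mean of each genotype was removed, whereas Srsf7 with Srsf10 went from 0.47 to 0.17. Srsf11 was highest in GFI1-KD replicate 1 (493 CPM), the library where Srsf7 was lowest. Of 8518 other genes with a mean of at least 10 CPM, those whose log2 CPM correlated best with the mean standardised level of the family were Pabpc4l (0.80), Espl1 (0.76), Rspry1 (0.76), Meis1 (0.75) and Pdlim7 (0.75), over the 15 libraries.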

How the data were processed

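Members and gene lists were chosen with earlier results of these data known. Single-end reads were quantified by the authors with Salmon on GRCm38 (Ensembl release 102). What was deposited are estimated counts, made from TPM by scaling with length and library size and not normalised further, for 35533 gene symbols and 117135 transcripts. The row with no symbol (0.0068 to 0.0719% of a library) was left out. All 15 columns were matched to titles by number, which no text states. Sleuth 0.30.0 and R 4.2.1 are named in the submitters' processing notes.

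Estimated counts were rounded. The package edgeR 4.0.16 (R 4.3.3) was run with TMM factors, filterByExpr (minimum count 10, minimum total 15), all 15 libraries in 1 fit, quasi-likelihood F test with 10 residual degrees of freedom, Benjamini-Hochberg adjustment over 13358 genes at a threshold of 0.05. The common dispersion was 1.94. Standard errors are the log2 fold change divided by the square root of F. Correlations used log2 CPM with a prior count of 2. Transcript usage was tested with diffSpliceDGE. Transcript names, classes and loci are those of GENCODE M21, which 115895 transcripts matched and 1240 did not. A gene's deposited value is not the sum of its transcripts: their ratio was 0.918 to 1.02 for Srsf7, 0.7 to 1.19 for Srsf10 and 0.579 to 1.54 for Srsf1.

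Named were the 10 members, Gfi1, of each list the gene with the highest mean CPM and the lowest p in the knock-down and knock-out comparisons, and the 5 genes most like the family. Alternatives were DESeq2 1.42.0, limma-trend 3.58.1 on log2(CPM + 1), median-ratio and upper-quartile normalisation, no filter, the other control, the genotypes compared alone, a replicate block, left-out libraries and, chosen after seeing the data, transcript sums and 1 control genotype for both effects. Exact tests used scipy 1.17.1 in Python 3.11.15. Scripts were tested on simulated data. Raw reads were not analysed here. A marker gene of the B cell list is not reported here.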

Additional observations from a re-analysis of the deposited data

Results flagged for a closer look

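Srsf7 was the one SR gene whose 2 effects took opposite directions without overlap: it was lower in each GFI1-KD library than in any GFI1-KI library, and higher in each Gfi1-KO library than in any Gfi1-WT library. Of all genes 5.05% were lower without overlap in GFI1-KD, and 4.04% were higher without overlap in Gfi1-KO. The share of all genes with both was not counted. The difference of both effects on Srsf7 was −0.90 on the log2 scale (edgeR, unadjusted p = 0.00536, adjusted p = 1). From transcript sums the GFI1-KD and GFI1-KI ranges overlapped, at 786 to 1654 and 1610 to 2148 CPM. With GFI1-KI as the control of both, Srsf7 was lower in both genotypes, at −0.58 in GFI1-KD and −0.13 in Gfi1-KO, and with 1 control genotype for both the difference of effects was −0.45 (edgeR, unadjusted p = 0.034). The cause was not tested.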

How the results depend on the processing

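No SR gene was called in any comparison under any alternative run, and the lowest adjusted p of a member ranged from 0.163 (GFI1-KD minus GFI1-KI) to 1.0 (GFI1-KI minus Gfi1-WT). The number of genes called by DESeq2 was 181 in GFI1-KD minus GFI1-KI, 194 in Gfi1-KO minus Gfi1-WT, 364 in GFI1-36N minus GFI1-KI, 146 in GFI1-KI minus Gfi1-WT, 228 in the pooled comparison and 199 in the difference of effects, against 0 or, pooled, 1 by edgeR. The pooled count was 0 with median-ratio normalisation, with no filter and with the replicate block. The fit of only GFI1-36N and GFI1-KI called 1 gene. Leaving out 1 replicate gave 0 to 2 genes in the pooled comparison and 0 to 1 in Gfi1-KO minus Gfi1-WT and in the difference of effects. The median log2 fold change of the SR genes was −0.091 by limma-trend and −0.21 without GFI1-36N replicate 3 and GFI1-KD replicate 1 in GFI1-KD minus GFI1-KI, and −0.36 without both in the difference of effects. It was −0.20 in Gfi1-KO with GFI1-KI as the control. With 1 control genotype for both effects, also chosen after seeing the data, it was 0.15 in the difference of effects. From transcript sums, likewise added, it was −0.11 in GFI1-KD and 0.026 in GFI1-36N minus GFI1-KI. Without single replicates it ranged from −0.20 to 0.067 in GFI1-KD minus GFI1-KI, −0.080 to 0.19 in Gfi1-KO minus Gfi1-WT, −0.0035 to 0.33 in GFI1-36N minus GFI1-KI, 0.26 to 0.41 in GFI1-KI minus Gfi1-WT and −0.33 to 0.084 in the difference of effects. The transcript usage test called 0 to 2 genes in GFI1-36N minus GFI1-KI and 0 to 1 in GFI1-KI minus Gfi1-WT without single replicates. Under the alternatives 1030 log2 fold changes of single members moved by less than that member's own spread between replicates and 20 by more. This spread was 1.76 for Srsf9 and 1.61 for Srsf4 on the log2 scale, against 0.25 for Srsf7, so that the count is a weak measure of stability. Signs changed for Srsf11 in 10 of 22 alternatives of the difference of effects, and for Srsf3 in 8 of 16 of Gfi1-KO minus Gfi1-WT. In GFI1-KD minus GFI1-KI they changed in 0 of 16 for Srsf7 and for Srsf10. With the replicate number as a block the median was −0.21 in the difference of effects. Among 30 pairs of libraries with the same number 1 had a correlation above 0.1, taken over all genes tested as deviations from genotype means. Such a check cannot exclude that the numbers pair libraries. In GFI1-36N minus GFI1-KI the block and limma-trend moved the median of all genes from −0.08 to −0.19 and −0.21. In these comparisons the causes were not tested. The spread between 3 libraries a group limits all of them. The biological coefficient of variation of 1.39 is the common value over all genes tested and not that of the SR genes.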
